A study of Mus musculus with 6 samples.

Results

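MicroRNAs with late registry numbers, here those named mmu-miR-N with N of 1000 or more, were examined in 2 sorted cell populations of the mouse mammary gland. The P4 population (lineage-negative, CD24-positive, high CD29, labelled as enriched for mammary stem cells) and the P5 population (lineage-negative, CD24-positive, low CD29, labelled as enriched for luminal or luminal progenitor cells) were each measured on 3 single-colour Agilent arrays. All cells came from virgin wild-type mice of strain FVB/N-J, and the labels name no transgene or treatment. The sort yields populations enriched for a cell type and not pure ones, and the labels leave unsaid if each replicate had its own mice or its own sort. The p-values therefore reflect only how far these 6 arrays scatter, and that scatter may be technical. The set was chosen by detection: a miRNA entered it if Agilent's flag called it detected on all 3 arrays of P4 or on all 3 of P5, with miR-3070a and miR-3070b left out. Of 446 such miRNAs on the array 121 met this rule, out of 1247 mouse miRNAs in all. They are called late-numbered miRNAs below.

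A miRNA is cut from a hairpin in a longer transcript by Drosha and Dicer, and one strand then guides Argonaute to target mRNAs through its seed, bases 2 to 8 of the mature sequence. The miRBase registry numbers miRNAs in the order in which they are submitted. Low numbers are mostly miRNAs that were cloned early and are conserved, and high numbers were mostly added from deep sequencing of small RNA. Some of these later entries have been judged to be fragments of transfer, ribosomal or small nucleolar RNA or of repeats, and some have been withdrawn from the registry.

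RefSeq (GRCm38.p6) held a mature sequence for 88 of the 121. The following 5 are among the late-numbered miRNAs of highest signal and are shown because they carry most of the signal on the arrays; capitals mark the seed.
miR-3963: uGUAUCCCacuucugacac
miR-6366: aGCUAAGGggcccggggagcca
miR-3968: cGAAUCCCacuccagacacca
miR-5100: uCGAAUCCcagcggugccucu
miR-6412: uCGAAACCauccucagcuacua

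These 5 have 5 different seeds. The letters AUCCCA stand in miR-3963, miR-3968 and miR-5100, which are 3 of the 88 late-numbered miRNAs with a sequence (3.41%), against 7 of all 1679 mature mouse miRNAs with 1 sequence in RefSeq (0.417%). The letters CGAAUCCCA stand in miR-3968 and miR-5100 and in no other of the 1679. miR-6366 and miR-3968 end in CCA, as do 4 of the 88 late-numbered miRNAs (4.55%) and 23 of the 1679 (1.37%). As background, CCA is the end that cells add to transfer RNA. Only the written strand was searched, and a match describes letters and not an origin. The letters to search for were chosen after the sequences were seen, so these shares are a description and not a test.

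The next 6 sequences belong to late-numbered miRNAs that differed between the populations, the first 3 higher and the last 3 lower in P4.
miR-1843b-3p: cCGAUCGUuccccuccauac
miR-3069-3p: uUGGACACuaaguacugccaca
miR-6236: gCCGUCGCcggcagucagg
miR-5103: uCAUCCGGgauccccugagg
miR-3077-5p: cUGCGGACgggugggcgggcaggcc
miR-3965: uGCUUAUCagccugauguu

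None of these 6 shares its seed with another of the 88 late-numbered miRNAs that have a sequence, and the rest could not be compared. Among all 88 sequences 2 seeds occurred more than once, GGCUGGA in miR-3473b and miR-3473e and UGGGAAG in miR-6368 and miR-6405. One seed, AGCUUUU of miR-6415, was shared with a tested miRNA of lower number, miR-208a-5p.

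Detection was uneven between the populations. Of the 121 late-numbered miRNAs 95 were detected on all 6 arrays, 26 on all P5 arrays but not on all P4 arrays, and 0 on all P4 arrays but not on all P5 arrays. Of these 26, 17 were detected on 2 P4 arrays, 2 on 1 and 7 on none. Among the 249 other miRNAs that met the same detection rule, 198 were detected on all 6 arrays, 16 on all P4 arrays only and 35 on all P5 arrays only. Counting every mouse miRNA, detection reached 325, 384 and 368 of them in P4 and 416, 419 and 367 in P5. Among all 446 with late numbers, 286 lacked detection everywhere and 39 had it on at least 1 array without meeting the rule. Just outside the rule, miR-3544-3p had log2 scaled signals of -3.44, -3.22 and -4.48 on the P4 arrays and -5.04, -5.16 and -4.09 on the P5 arrays, with detection on 2 arrays of each. Just inside, miR-1965 had -5.49, -5.41 and -4.81 on the P4 arrays and -5.49, -5.48 and -5.47 on the P5 arrays, with detection on 2 and 3 of them. Signal here is the spot intensity averaged over the probes of a miRNA and divided by the scaling signal of the array, the 75th percentile of the miRNAs detected on all 6 arrays, so 0 on the log2 scale equals the scaling signal. The floor was at -5.49. Agilent's flag is set within each array, before any scaling between arrays. P4 replicate 1 had both the lowest scaling signal, 186 intensity units, and the fewest detected miRNAs, 325. The other P4 arrays had scaling signals of 382 and 273, and the P5 arrays 526, 457 and 315. The part of array brightness in the uneven detection was not tested. Of the pair above, miR-3544-3p, which missed the rule, had the higher mean, at -4.24 against -5.36 for miR-1965. They were picked as extremes, the brightest that missed the rule by 1 array and the dimmest of the 121.

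Late-numbered miRNAs held most of the signal of both populations. They made up 73.1%, 71.0% and 73.4% of the summed signal of all 370 tested miRNAs on the P4 arrays, against 67.4%, 69.8% and 71.5% on the P5 arrays, a mean of 72.5% ± 1.29 in P4 and 69.6% ± 2.04 in P5 (SD, n = 3 arrays each). The ranges overlap. miR-3963 alone held 26.5%, 21.9% and 25.2% in P4 and 20.9%, 22.2% and 23.3% in P5. miR-6366 held 22.6%, 23.5% and 22.5% in P4, against 20.1%, 19.3% and 21.0% in P5, without overlap. These are shares of fluorescence, and since brightness also depends on the probe, they are not shares of molecules.

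**Figure D1:**
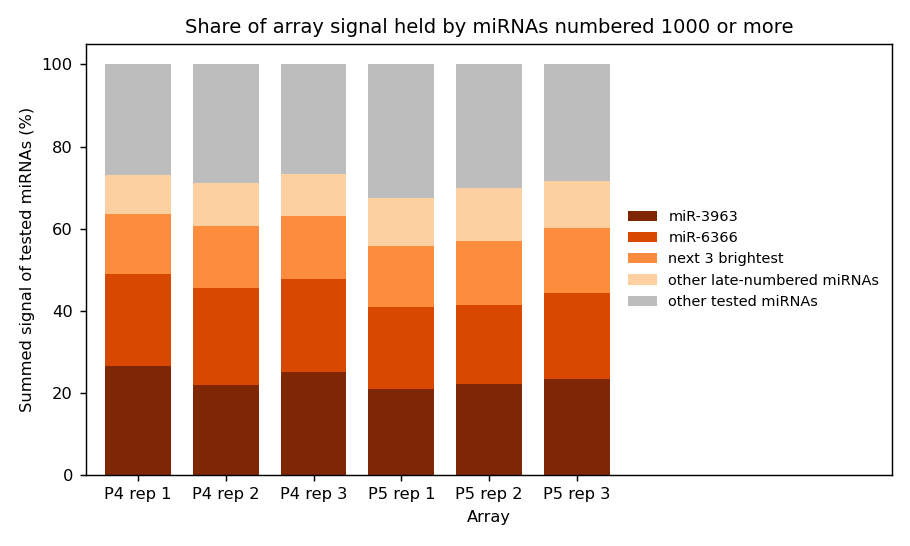
Stacked bars give, for each array on the x axis, the percent of the summed signal of the 370 tested miRNAs held by miR-3963, miR-6366, the next 3 brightest late-numbered miRNAs, the other late-numbered miRNAs and all other tested miRNAs. Late-numbered miRNAs together reach 71.0% to 73.4% on the P4 arrays and 67.4% to 71.5% on the P5 arrays.

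The 8 miRNAs of highest mean signal among all 370 tested were late-numbered, in the order miR-3963, miR-6366, miR-3968, miR-5100, miR-5097, miR-6412, miR-6243 and miR-5109. miR-21a-5p, an abundant miRNA of many cell types, came next in this order, before let-7a-5p, and miR-5117-3p and miR-1906 followed in places 13 and 14. Most other late-numbered miRNAs were dim. The median of their mean log2 scaled signals was -2.96, against -2.63 for the 249 other tested miRNAs. Only 19 of the 121 lay at or above the scaling signal, against 59 of the 249, and 17 lay within 1 log2 unit of the floor.

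miR-3963 had log2 scaled signals of 8.08, 7.49 and 7.91 on the P4 arrays, against 7.24, 7.25 and 7.68 on the P5 arrays, so the groups overlap. Its difference, P4 minus P5, was 0.44 ± 0.21 (SE, n = 3 arrays each; limma adjusted p = 0.161), with a 95% interval of -0.064 to 0.94. miR-6366 had 7.85, 7.60 and 7.75 in P4, against 7.19, 7.05 and 7.53 in P5. Each P4 array was above each P5 array, yet the difference of 0.48 ± 0.18 did not pass (limma adjusted p = 0.0905). miR-3968 had 6.32, 6.23 and 6.35 in P4 and 6.01, 5.96 and 6.37 in P5, a difference of 0.19 ± 0.16 with an interval of -0.20 to 0.57. miR-5100, whose hairpin lies within the span of Mief2, had 5.45, 4.96 and 5.35 in P4 and 4.67, 4.66 and 5.02 in P5 (0.47 ± 0.19, limma adjusted p = 0.12). For miR-6412 the populations were level at 4.08 ± 0.20 in P4 and 4.09 ± 0.23 in P5 (SD), with an interval of the difference of -0.44 to 0.43. Of the 10 brightest late-numbered miRNAs, only miR-6243, given below, passed the threshold.

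**Figure D2:**
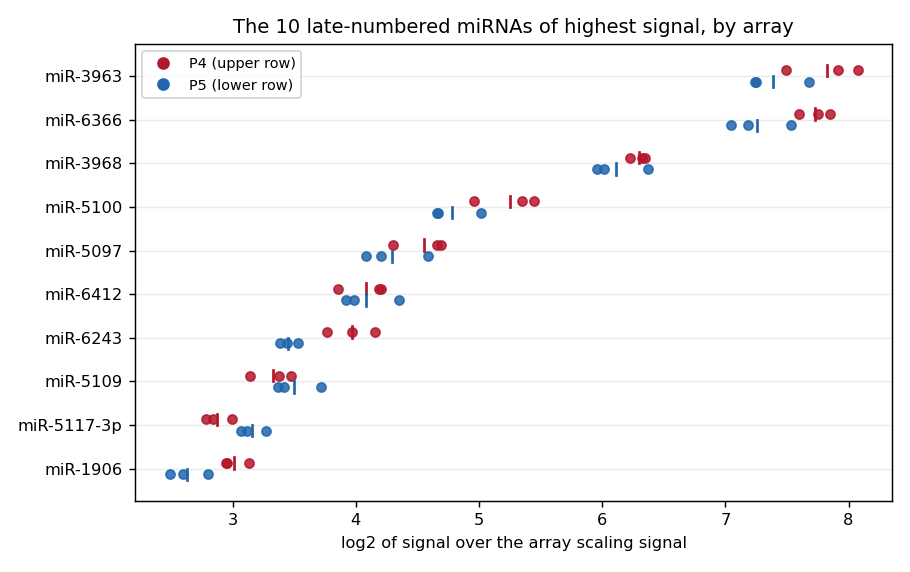
Points give the log2 scaled signal of the 10 late-numbered miRNAs of highest mean signal on each array (x axis), with P4 arrays in the upper and P5 arrays in the lower row of each miRNA and a bar at each mean. The P4 and P5 points overlap for miR-3963, miR-3968 and miR-6412 and lie apart for miR-6366, miR-6243, miR-5117-3p and miR-1906.

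The scaling bears on the direction of these values. The scaling signal was 186, 382 and 273 intensity units on the P4 arrays and 526, 457 and 315 on the P5 arrays, a 2.83-fold range from lowest to highest. Before scaling, the intensity of miR-3963 was 50216, 68972 and 65811 units on the P4 arrays, against 79517, 69564 and 64550 units for P5, a 1.58-fold range. It was thus highest relative to the scaling signal on the array where that signal was lowest, and its 6 scaled values stood in the exact reverse order of the scaling signal. Division by that signal enters this order by construction. Of the late-numbered miRNAs 3 stood in this exact order. Of the 10 brightest, 4 were highest on the array of lowest scaling signal. The 10 brightest late-numbered miRNAs had a median range of 1.92-fold before scaling, all 95 detected on every array one of 2.56-fold, and the others detected on every array one of 3.16-fold, over 197 of the 198, since 1 had an intensity not above 0 on an array. With no scaling the 4 brightest late-numbered miRNAs turned sign, miR-3963 to -0.22, miR-6366 to -0.18, miR-3968 to -0.47 and miR-5100 to -0.19, none past the threshold. With no scaling the median difference of the late-numbered miRNAs was -0.65 in place of -0.0094, and that of all tested miRNAs was -0.64 in place of 0.0013. Differences are therefore given relative to the other miRNAs of an array.

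Few late-numbered miRNAs differed between the populations. At an adjusted p under 0.05 with limma, 4 of the 95 detected on all 6 arrays were higher in P4 and 5 lower, together 9.47%. Over all 293 miRNAs detected on every array, 37 were higher (12.6%) and 35 lower (11.9%), and 24.6% were called in all. Among the 198 others with such detection 63 were called (31.8%). Groups did not overlap for 20 of the 95 (21.1%), with 40.6% over the 293. Over all 121 the count was 12 (9.92%), 4 higher and 8 lower, where 27.8% of all 370 tested were called, 13.8% higher and 14.1% lower. Of those 8, 3 entered through P5 detection alone, a choice that favours lower values in P4, so nothing is read from the counts over the 121. The late-numbered miRNAs had smaller differences with a like error: their median absolute log2 difference was 0.29 and their median SE 0.21, against 0.47 and 0.20 for the 198 others. An absolute log2 difference of 1 or more was found for 2 of the 95 and for 42 of the 198. These shares are set side by side without a test, since detection chose the late-numbered miRNAs. Of the 86 that were not called, 65 had a 95% interval within 1 log2 unit of 0 on both sides and 10 within 0.5, while for the other 21 the interval reached a 2-fold difference.

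**Figure D3:**
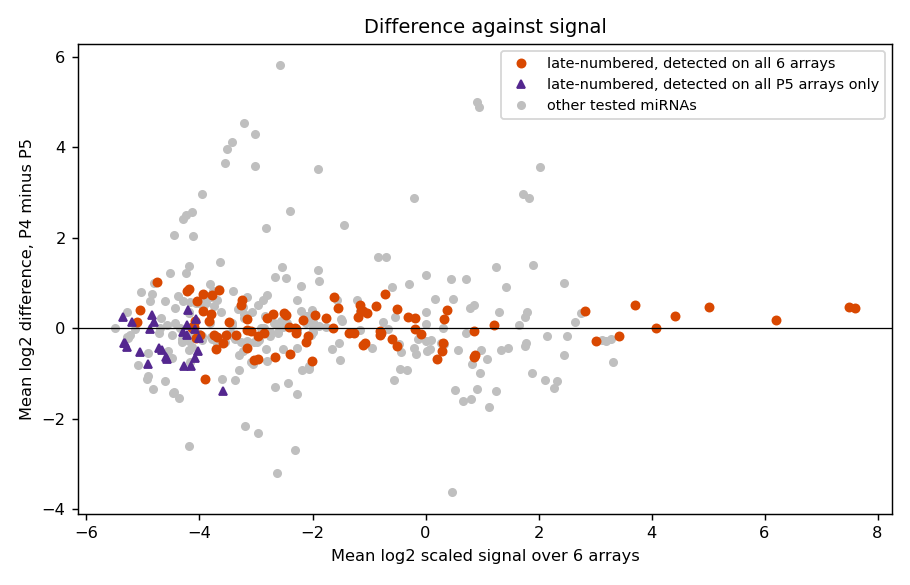
Each symbol is 1 of the 370 tested miRNAs, with its mean log2 scaled signal over 6 arrays on the x axis and its mean log2 difference, P4 minus P5, on the y axis. Late-numbered miRNAs lie between -1.40 and 1.01, while other tested miRNAs reach from -3.64 to 5.81.

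These counts rest on few arrays. Without P4 replicate 1, 0 of the 95 were higher and 1 lower, and without P5 replicate 2, 0 and 2. Without P4 replicate 2 there were 3 and 1, without P4 replicate 3 there were 5 and 7, and without P5 replicate 1 there were 1 and 3. Without P5 replicate 3, 12 were higher and 5 lower. The split of directions moved with the scaling, to 3 higher and 10 lower when scaled over all miRNAs of the array or by quantiles, and to 0 and 9 with no scaling. With normexp background correction, run with an offset of 50 and followed by quantile normalization, there were 0 and 11. With the authors' processed values there were 0 and 12. All arrays lay on 1 slide, with the P4 arrays and P5 replicate 1 in its first row. With the row as a block, which compares the P4 arrays with P5 replicate 1 alone, 0 and 0 were called (0 higher and 1 lower among all 121).

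The 4 late-numbered miRNAs higher in P4 differed by less than 2-fold. miR-1843b-3p, which lies within Cop1 and the small Cajal body RNA gene Scarna3a, had -2.92, -3.35 and -3.46 on the P4 arrays, against -4.21, -4.27 and -3.75 on the P5 arrays (0.83 ± 0.22, limma adjusted p = 0.0247). miR-6236 had -3.56, -3.84 and -3.26 in P4, against -4.38, -4.31 and -4.24 in P5 (0.75 ± 0.18, limma adjusted p = 0.0186). miR-3069-3p, within the span of Snhg10 and of the small Cajal body RNA gene Scarna13, had -1.06, -1.40 and -1.38 in P4, against -1.93, -2.06 and -1.90 in P5 (0.68 ± 0.16, limma adjusted p = 0.0158). In each of these the lowest P4 array lay above the highest P5 array. miR-6243 had 3.97, 3.77 and 4.16 in P4, against 3.39, 3.44 and 3.53 in P5, also without overlap (0.51 ± 0.16, limma adjusted p = 0.0496). With no scaling none of the 4 passed: miR-1843b-3p was at 0.18, miR-6236 at 0.098, miR-3069-3p at 0.026, and miR-6243 turned to -0.14. With normexp they lay at 0.19, 0.12, 0.24 and 0.24 in that order, and none passed. That setting also adds an offset, which draws differences of dim miRNAs toward 0, and normalizes by quantiles. With quantile normalization alone miR-6243 was at 0.25 and did not pass, while miR-1843b-3p, miR-6236 and miR-3069-3p passed. Of 23 other settings, miR-1843b-3p passed in 12, miR-6236 in 15, miR-3069-3p in 16 and miR-6243 in 4.

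The 5 late-numbered miRNAs lower in P4 kept that direction in every setting tried. miR-3096b-3p had 0.46, 0.67 and 0.47 on the P4 arrays, against 1.16, 1.23 and 1.16 on the P5 arrays (-0.65 ± 0.14, limma adjusted p = 0.0115). It passed in 21 of 23 other settings, where it lay between -1.30 and -0.56. miR-5105 had -0.19, -0.35 and 0.14 in P4, against 0.54, 0.58 and 0.51 in P5 (-0.67 ± 0.17, limma adjusted p = 0.0216). The 3 P5 arrays of both miRNAs lay close together and above each P4 array. miR-5103 had -2.78, -2.71 and -2.56 in P4, against -2.16, -2.09 and -2.07 in P5 (-0.57 ± 0.14, limma adjusted p = 0.0194), but its 2 probes went opposite ways, at -0.72 and 0.13. miR-3077-5p, within the span of Sap18, had -3.43, -3.33 and -3.40 in P4, against -3.03, -2.36 and -2.69 in P5 (-0.70 ± 0.20, limma adjusted p = 0.0339). miR-3965 had -4.71, -4.28 and -4.37 in P4, against -3.31, -3.94 and -2.76 in P5 (-1.12 ± 0.30, limma adjusted p = 0.0291). The last 2 rest on 1 probe above the floor. With normexp, whose offset draws differences of dim miRNAs toward 0, miR-3077-5p lay at -0.24, miR-3965 at -0.25 and miR-5103 at -0.25. Of the 23 other settings miR-5105 and miR-5103 passed in 17 each, miR-3965 in 14 and miR-3077-5p in 12.

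**Figure D4:**
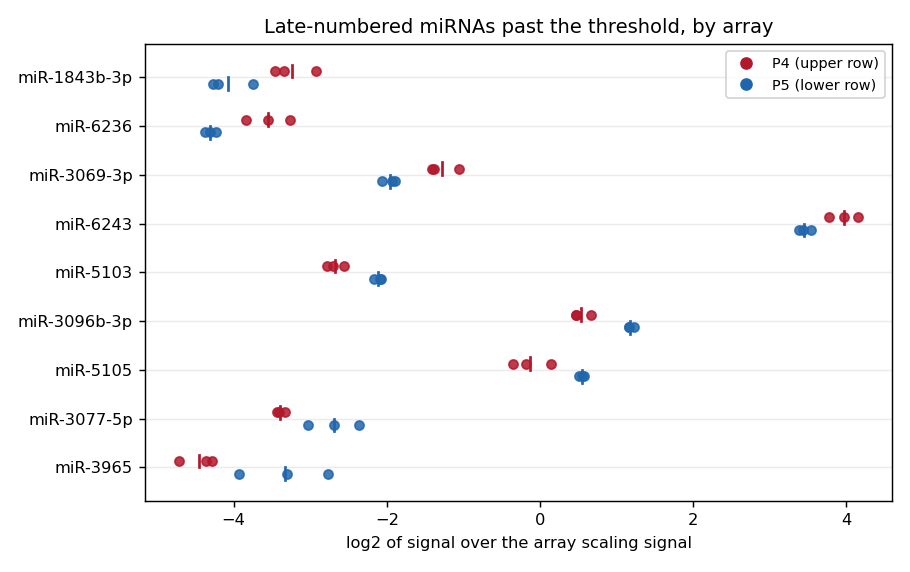
Points give the log2 scaled signal on each array (x axis) of the 9 late-numbered miRNAs detected on all 6 arrays and past the threshold, with P4 in the upper and P5 in the lower row of each and a bar at each mean. The groups lie apart in all 9; miR-1843b-3p, miR-6236, miR-3069-3p and miR-6243 lose this call with no scaling, where miR-6243 is at -0.14.

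The 26 late-numbered miRNAs that entered through P5 detection alone are described without a test, since the rule used that detection. Their log2 differences lay between -1.40 and 0.40 with a median of -0.32. miR-1957a had -4.49, -4.18 and -4.16 on the P4 arrays, against -3.41, -3.28 and -1.95 on the P5 arrays. miR-3470a had -4.95, -4.46 and -4.34 in P4, against -3.71, -3.62 and -3.87 in P5. Both were detected on 2 P4 arrays and did not overlap between the groups. miR-3075-5p, with detection on no P4 array, had -5.49, -5.29 and -5.15 there, against -4.70, -4.66 and -4.18 in P5. With the floor multiplied by 2 its difference was -0.10 in place of -0.79. The other 6 that no P4 array detected were miR-3099-3p, miR-6388, miR-6418-5p, miR-1927, miR-5115 and miR-1247-3p. The last 2 lay at the floor of -5.49 on P5 replicate 1 as well. The size of the difference is not read for any of these 7, since their values lie close to the floor.

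The array measures most of these miRNAs with 2 probes, 116 of the 121, while 4 had 3 probes and 1 had 4. Over all mouse miRNAs of the array the mean was 40 spots per miRNA. For 101 of the 121 at least 2 probes lay above the floor, and for 20 only 1 did, against 10 of the 249 other tested miRNAs. Where 2 or more could be compared, the probes of a late-numbered miRNA gave like differences between the populations. The median gap between the highest and the lowest was 0.067 on the log2 scale, against 0.060 for the others. This gap is a range, and 59 of the 249 others had 4 probes. The others also had larger differences, with a median absolute log2 difference of 0.51 against 0.32. The gaps and the shares of opposite sign are therefore not like for like between the 2 sets. The probes of a late-numbered miRNA had opposite signs in 11 of 101 (10.9%), against 18 of 239 others (7.53%). Of the 19 late-numbered miRNAs at or above the scaling signal this was so for 1, miR-6412, at -0.013 and 0.062, both near 0. The widest splits of sign among dim ones were miR-5103, given above, miR-6392-3p at -0.51 and 0.16, and miR-3058-3p at -0.40 and 0.15. Which RNA the probes bound was not tested.

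**Figure D5:**
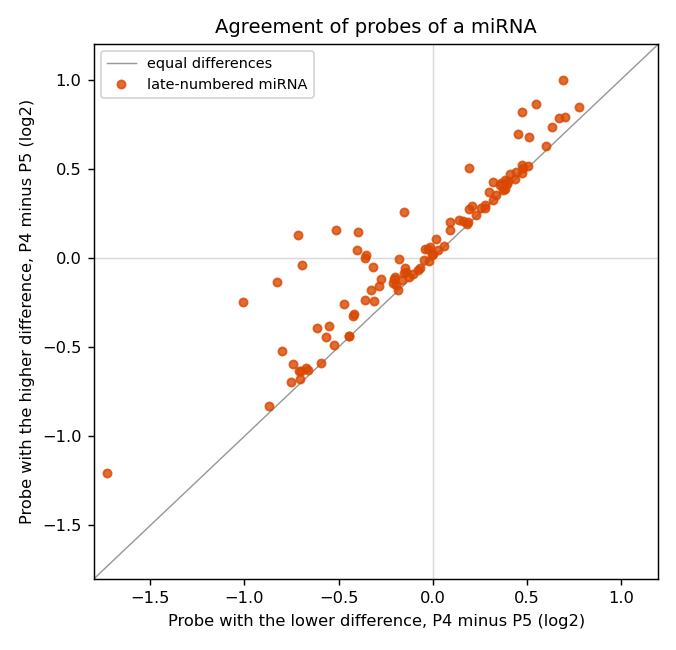
Each point is 1 of the 101 late-numbered miRNAs with at least 2 probes above the floor, with the lowest probe difference between P4 and P5 (log2, P4 minus P5) on the x axis and the highest on the y axis. Points near the line have probes of equal difference; the 11 at the upper left of both 0 lines have probes of opposite sign.

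In the RefSeq annotation of GRCm38.p6, 5 of the 88 with a sequence overlap a small nucleolar or small Cajal body RNA gene, RNAs that guide chemical modification of other RNA. miR-1843b-3p and miR-3069-3p rose in P4, as given above. miR-1843a-3p (Scarna3b) was at 0.29 ± 0.23, miR-3084-3p (Snora19) at 0.023 ± 0.15 and miR-5121 (Snord33) at -0.67 ± 0.30, none of which passed. The only other tested miRNA with such an overlap, miR-664-3p (Snora36b), was at 0.63 and did not pass (limma adjusted p = 0.129). miR-1839-3p, known as a product of an H/ACA small RNA, had -0.71, -0.91 and -0.89 on the P4 arrays and -0.62, -1.0 and -0.55 on the P5 arrays (-0.11 ± 0.17, limma adjusted p = 0.648).

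Another group shares a run of letters. GAGAUGGCU stands in miR-3473a, miR-3473b, miR-3473e and miR-5128, and in no other of the 1679 mature sequences. These letters too were chosen after the sequences were seen. As background, B2 repeats of the mouse genome begin with similar letters. The sequences are shown because the first 2 share a seed and a run of 18 bases; capitals mark the seed.
miR-3473b: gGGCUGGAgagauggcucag
miR-3473e: gGGCUGGAgagauggcucgua
miR-3473a: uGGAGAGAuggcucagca
miR-5128: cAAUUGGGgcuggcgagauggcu

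All 4 were lower on average in P4 and none passed. miR-3473b had 0.44, 0.34 and 0.96 on the P4 arrays, against 0.997, 1.18 and 1.35 on the P5 arrays, without overlap (-0.59 ± 0.21, limma adjusted p = 0.077). miR-3473a was at -0.39 ± 0.20, miR-3473e at -0.34 ± 0.20 and miR-5128 at -0.14 ± 0.22. miR-3962 also has a close relative on the array, with a run of 17 bases in common with let-7g-5p, a miRNA that represses growth genes such as Hmga2, and it was at -0.33 ± 0.16 (limma adjusted p = 0.167). Binding of 1 RNA by the probes of another was not tested.

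The late-numbered miRNAs were rich in G and C. The median GC content of the 88 with a sequence was 61.9%, against 47.7% for 208 other tested miRNAs with a sequence, and 10 of the 88 (11.4%) had 75% or more, against 3 of the 208 (1.44%). The 10 of highest GC content had their highest P5 value on P5 replicate 2 in 7 cases, as had 15 of the other 78. Their median deviations from the P5 mean were -0.30, 0.29 and 0.034 on P5 replicates 1, 2 and 3. Those from the P4 mean were 0.058, -0.029 and -0.015. Among the 10 are miR-3077-5p and miR-6236, both called above. Without P5 replicate 2, miR-3077-5p was at -0.53 (limma adjusted p = 0.0821) and miR-6236 at 0.75 (limma adjusted p = 0.0569), so neither passed. miR-5126, the only one made of G and C alone, had 1.31, 1.17 and 1.22 on the P4 arrays and 0.86, 1.59 and 1.07 on the P5 arrays. The level of 75% was chosen after the values were seen.

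miR-2861 and miR-3960, a pair known in mouse from the differentiation of bone-forming cells, followed the same order in P5. miR-2861 had -0.62, -0.66 and -0.90 in P4 and -0.97, 0.00 and -0.46 in P5 (-0.25 ± 0.25). miR-3960 had 0.88, 0.77 and 0.81 in P4 and 0.53, 1.41 and 0.71 in P5 (-0.061 ± 0.24). Neither passed, and for both the P5 arrays spread more widely than the P4 arrays. miR-1224-5p, a mirtron cut by the spliceosome from an intron of Vwa5b2, had 0.59, 0.40 and 0.77 in P4, against -0.10, 0.30 and 0.33 in P5, without overlap and without passing (0.41 ± 0.18, limma adjusted p = 0.14). miR-1306-3p, within the span of Dgcr8, the gene of Drosha's partner, was at 0.17 ± 0.22.

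For 7 hairpins more than 1 product was late-numbered and detected, and in 6 of them the products had differences of 1 sign. None of these products passed the threshold, and no such share was taken over the other miRNAs. miR-3068-5p, miR-3092-5p and miR-5132-5p each had a probe that was not above the floor. The probes of miR-3058-3p had opposite signs, as given above. For miR-5117 both arms were lower on average in P4, miR-5117-3p at -0.28 ± 0.14 and miR-5117-5p at -0.72 ± 0.23 (limma adjusted p = 0.184 and 0.0517), the second with -2.75, -2.23 and -2.15 in P4 against -1.52, -1.48 and -1.98 in P5. The 4 products of miR-3102 went both ways, from -0.072 to 0.60, and none passed. The largest difference upward was that of miR-5127 (1.01 ± 0.38, limma adjusted p = 0.0906), with -3.44, -4.45 and -4.84 in P4 and -5.49, -5.49 and -4.80 in P5, the first 2 of which are the floor, so the size depends on the floor.

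Marker miRNAs of contractile and basal cells were higher in P4 and those of epithelium higher in P5, and markers of other cells were present. None was listed as a marker of stem cells. The summed scaled signal of miR-143-3p, miR-145a-5p and miR-205-5p, miRNAs of contractile and basal cells, was 24.3 to 42.7 in P4 and 1.58 to 2.28 in P5. That of miR-200c-3p, miR-141-3p and miR-148a-3p, miRNAs of epithelium, was 1.74 to 3.15 in P4 and 10.6 to 12.9 in P5. The 2 arms of miR-126, made by endothelium, both detected on every array, summed to 8.09 to 20.6 in P4 and 0.77 to 2.32 in P5, and the 3 leukocyte miRNAs (miR-142-3p, miR-150-5p and miR-223-3p, all 3 detected on every array) to 0.83 to 2.86 in P4 and 0.56 to 0.79 in P5. The 3 mesenchyme miRNAs summed to 0.78 to 2.15 in P4 and 0.095 to 0.12 in P5. Of these, miR-214-3p was detected on no array and miR-199a-5p on only 1 P5 array. The 3 muscle miRNAs, of which miR-206-3p lacked detection throughout, summed to 0.38 to 0.62 in P4 and 0.015 to 0.024 in P5. The erythroid miR-451a, detected on 2 arrays of each population, was at 0.036 to 0.055 in P4 and 0.016 to 0.029 in P5. Fewer cells of a type and less RNA per cell cannot be told apart in such samples. The part of these markers in the differences of late-numbered miRNAs was not tested.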

How the data were processed

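RNA enriched for miRNA was labelled with Cy3 and hybridised to 6 Agilent miRNA arrays on 1 slide, in 1 scan, per the file headers. The deposited spot intensity had its background subtracted (per the file headers, with version 11.0.1.1 of Feature Extraction) and had not been scaled between arrays. The authors' deposited log2 table equals log2 of Agilent's summed signal plus a shift per array and a constant per miRNA, within 7.8e-06, and how these were chosen is unknown. Its column medians are 0.42, -0.36 and -0.06 for P4 and -0.56, -0.47 and 0.06 for P5. It served as an alternative.

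Spots with outlier flags were dropped, and processed intensity was averaged per probe and over probes. Values were divided by the 75th percentile of the 293 miRNAs that every array detected, floored at 0.0223 and log2 transformed. The 370 miRNAs detected on all arrays of a population were tested with limma 3.58.1 (R 4.3.3; lmFit and eBayes, Benjamini-Hochberg, 2-sided). No spot was saturated. The number of arrays limits the precision. Simulated data were used to check the fit.

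The miRNAs and lists were chosen with earlier results of these data known. Named are the 10 of highest signal, those called, those detected in 1 population only and those sharing a seed. So are miR-1224, miR-1839, miR-2861 and miR-3960. Only some are named of the 10 largest differences each way, those whose probes differ in sign and those at the edge of the rule. Others were named after their values were seen. The labels leave unsaid if replicate numbers pair the arrays, and the main fit did not pair them. The correlations of deviations from the group means were -0.0696, 0.369 and 0.0863 for replicates 1, 2 and 3. With so few arrays these values cannot settle it. Alternatives covered scaling, background, probe averaging, filter, floor, eBayes options, blocks and leaving out arrays. The normexp alternative used an offset of 50 and quantile normalization in place of the scaling and floor.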

Additional observations from a re-analysis of the deposited data

How the results depend on the processing

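Counts of late-numbered miRNAs called by limma were few, and most settings moved some of them by more than 1.5 times. The number higher in P4, 4 at first, was the same for all 121 and for the 95 detected on every array. It was 0 with no scaling, normexp, the authors' values, no filter or the slide row as a block, and 2 with the replicate block. It ranged from 0 to 12 when 1 array was left out. The number lower in P4 was 8 of all 121, a description that includes miRNAs entered through P5 detection, and 5 of the 95. It was 16 and 10 when scaled over all miRNAs, 16 and 10 with quantile normalization, 16 and 9 with no scaling, 13 and 11 with normexp, and 19 and 12 with the authors' values. It was 4 and 3 when scaled over miRNAs outside the set (chosen after seeing the data), 2 and 2 with no filter, 5 and 3 with detection on at least 1 array, 5 and 4 with the higher floor, and 1 and 0 with the slide row block. It was 9 and 2 with summed signal. It ranged from 2 to 10 and from 1 to 7 when 1 array was left out. Over all tested miRNAs, 51 higher and 52 lower became 23 and 77 with no scaling, 31 and 81 with the authors' values, 25 and 22 with no filter, and 29 and 23 with the slide row block, and ranged from 43 to 72 and from 40 to 56 when 1 array was left out. The median difference of the set moved to -0.65 with no scaling and to -0.44 with the authors' values. Of 42 late-numbered miRNAs recomputed under the alternatives, 16 turned sign in at least 1 and 10 with no scaling, among them miR-3963 (-0.22) and miR-6366 (-0.18). Of these 16, 1 had passed the threshold, miR-6243, at -0.14 with no scaling (limma adjusted p = 0.757). The replicate block gave 2 higher and 10 lower of the 121. The causes were not tested.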
